A study of Mus musculus with 10 samples.

Results

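A set of 10 genes that specify pigment cells or govern their signalling was followed in whole mouse skin: the transcription factors Mitf, Sox10 and Pax3, the receptors Kit, Ednrb and Mc1r, the ligands Kitl, Edn3 and agouti (symbol a), and the protease Corin. They were chosen by name, as 10 of the 49671 gene IDs counted, to ask whether genes that mark melanocytes move together with genes that make pigment. Melanocytes of mouse skin sit largely in hair follicles, where they come from neural crest precursors specified by SOX10, PAX3 and MITF and kept alive and guided by KIT and EDNRB signals. Pigment is made while a hair grows. MC1R on the melanocyte then sets the pigment type, with agouti from the dermal papilla opposing it and Corin, a papilla protease, opposing agouti.

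RNA was sequenced from 5 homozygous mutants of the strain B6;129S4-Npytm2Rpa/J, written NPYtet (NPY tet/tet), and from 5 wildtype siblings, written WT (NPY +/+). All were 22 weeks old. By label, NPYtet held 3 females and 2 males, and WT held 2 females and 3 males. The labels give neither the cells that the altered Npy allele acts in nor a coat colour, an agouti allele or a hair cycle stage, and each library carries its own number without a statement that it is 1 mouse, so p-values measure the spread between these samples. Levels are counts per 1000000 reads of the scaled library (CPM), and differences are log2 fold changes, NPYtet minus WT, with the SE of the fit.

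Total counts ran from 23209405 to 53357695 reads. Npy itself averaged 224 CPM in NPYtet and 1.57 CPM in WT (log2 fold change 7.45, SE 0.62, edgeR adjusted p = 0.000109), and it was the 1 gene of 18060 tested that passed the threshold of 0.05, or 0.00554%. The labelled tissue was matched by its defining markers: the 12 skin markers, Krt14 and Col1a1 among them, summed to between 28520 and 89452 CPM in NPYtet and between 21157 and 95198 CPM in WT. Some libraries stood apart. NPYtet replicate 5 had 9.26% mitochondrial reads, against 1.86% to 3.03% in the other libraries, and 19953 genes with a read. WT replicate 2 had 21144 such genes, and the other 8 libraries had 24710 to 26323. NPYtet replicate 1, labelled female, had 2 Xist reads and 1513 reads of the Y-linked gene Ddx3y, against its label.

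Of the 10 genes, 9 passed the filter on low counts. None of the 9 was called between genotypes by edgeR, by DESeq2 or by limma voom, which called 0.00554%, 0.194% and 0.0111% of all genes in that order, and none reached an unadjusted p of 0.05 in edgeR, where 3.59% of all genes did (2.14% as lower and 1.46% as higher). DESeq2 put 2 of them under that unadjusted p, with 5.4% of all genes, and limma voom put 1, with 4.33%. The fold change was negative for 8 of the 9, against 51.2% of all genes tested, with a median of -0.32 against -0.01 over all genes. In 0 of the 9 did the genotypes fail to overlap, against 0.305% of genes tested (0.216% as lower). Mc1r was the gene that the filter left out, and it was lower in every NPYtet library than in any WT library. In bulk RNA, fewer cells of a type and less RNA per cell cannot be told apart for any of these genes.

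**Figure D1:**
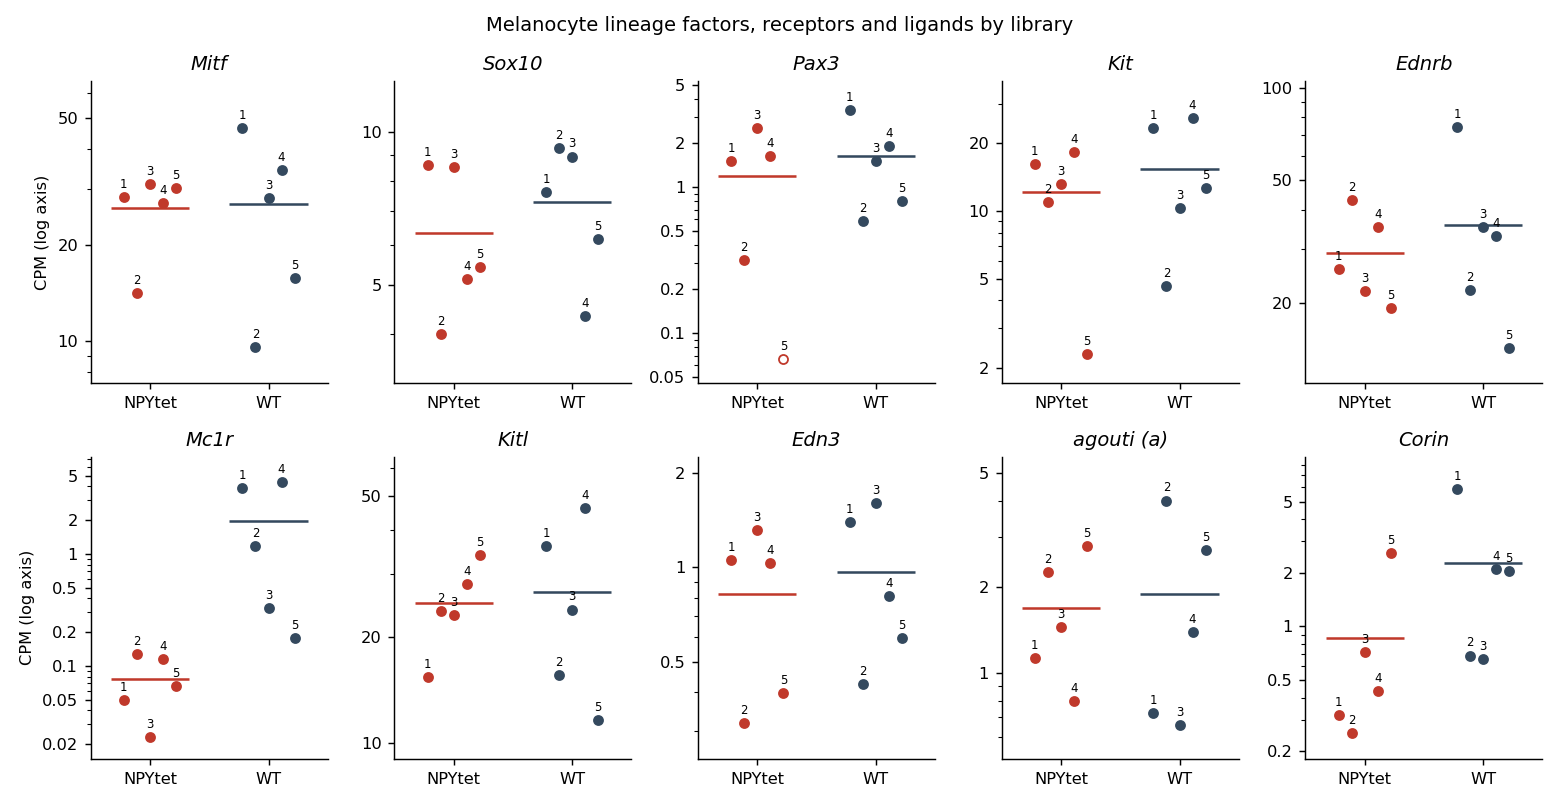
CPM (log axis) of the 10 genes in each library, NPYtet left and WT right. Each point is 1 library with its replicate number beside it, the lines are group means, and the open circle is a library with 0 reads of Pax3, drawn at the CPM of 1 read. The groups overlap for 9 genes, and for Mc1r all NPYtet points lie under all WT points.

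Mc1r encodes the receptor through which melanocortin switches melanocytes to dark pigment. It lies at chr8:123407107-123410744 on the plus strand (GENCODE M21, GRCm38, the assembly of mm10), and 653 bases of its exons are shared with Gm38092 on the opposite strand, so that a part of its reads is uncertain in origin. Its promoter was compared with those of Tyr and Tyrp1, enzymes of pigment synthesis that MITF is known to activate through the motif CATGTG, which was searched on both strands and reads CACATG on the other. The windows run from 250 bases before to 50 bases after the start, from RefSeq on GRCm38.p6, and are shown because the Mc1r window alone among those of the lineage genes with an entry held this motif. Those of Mc1r (chr8:123406832-123407131, plus strand), Tyr (chr7:87493463-87493762, minus strand) and Tyrp1 (chr4:80833963-80834262, plus strand) read 5′ to 3′, with the motif in capitals:
Mc1r: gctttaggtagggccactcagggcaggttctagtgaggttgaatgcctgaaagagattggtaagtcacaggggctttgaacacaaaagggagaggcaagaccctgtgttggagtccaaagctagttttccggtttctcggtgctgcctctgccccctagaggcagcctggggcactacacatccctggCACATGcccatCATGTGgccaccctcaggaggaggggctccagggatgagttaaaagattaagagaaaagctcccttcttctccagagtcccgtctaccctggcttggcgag
Tyr: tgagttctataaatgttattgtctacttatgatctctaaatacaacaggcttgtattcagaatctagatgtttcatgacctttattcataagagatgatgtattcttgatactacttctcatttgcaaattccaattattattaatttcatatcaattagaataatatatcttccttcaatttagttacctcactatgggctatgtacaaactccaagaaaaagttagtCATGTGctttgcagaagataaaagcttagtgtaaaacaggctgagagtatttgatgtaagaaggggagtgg
Tyrp1: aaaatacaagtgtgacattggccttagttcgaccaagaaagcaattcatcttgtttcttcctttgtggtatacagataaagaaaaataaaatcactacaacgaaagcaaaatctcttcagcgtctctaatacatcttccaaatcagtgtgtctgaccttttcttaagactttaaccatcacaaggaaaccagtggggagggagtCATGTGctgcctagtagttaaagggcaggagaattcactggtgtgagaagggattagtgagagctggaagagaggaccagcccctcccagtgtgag

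In the Mc1r window the motif begins at -62 and -51 from the start. In Tyr it begins at -21 and in Tyrp1 at -46. Of the lineage genes, 8 had entries, with 11 windows between them, and CATGTG was in 1 gene. Of the 13 genes of a pigment list (Tyr, Tyrp1, Dct, Pmel, Slc24a5, Slc45a2, Oca2, Trpm1, Mlana, Gpr143, Rab38, Rab27a and Slc7a11), 8 had entries and 7 held it. Among all 32851 windows of this length the share was 14.2%. A match here is a run of letters and not a bound site.

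In NPYtet replicates 1 to 5, Mc1r had 2, 4, 1, 5 and 1 reads, against 150, 22, 14, 263 and 6 reads in WT replicates 1 to 5. Its levels were 0.0492, 0.127, 0.0231, 0.114 and 0.0662 CPM in NPYtet and 3.87, 1.16, 0.329, 4.35 and 0.178 CPM in WT. WT replicates 1 and 4 were by far the highest, and WT replicate 5 came closest to the NPYtet libraries without reaching them. The summed reads, 13 in NPYtet and 455 in WT, gave a level 31.4-fold lower in NPYtet (95% interval 18.2 to 59.4, counting error only). The mean log2 CPM was -3.01 in NPYtet and 0.18 in WT, a difference of -3.19. Of the 14797 genes with a read that the filter left out, 42 were likewise lower without overlap (0.284%), and 0.128% were higher without overlap.

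Fitted with no filter on low counts, the Mc1r difference was -4.65 in log2 units (SE 0.65, edgeR adjusted p = 3.37e-10), where 409 of 32857 genes passed the threshold (1.24%) and 0.992% passed it as lower. Over 17 alternatives to this fit the fold change stayed between -5.03 and -2.72, with 10 past the threshold and adjusted p-values from 7.80e-11 to 0.999. The call was lost without WT replicate 2 (adjusted p = 0.430), without NPYtet replicate 1 (0.129) or without NPYtet replicate 5 (0.608). Mc1r passed the filter on low counts in 7 alternatives, each with libraries left out, and 0 of these called it. There the fold change was -4.96 to -4.40, with edgeR unadjusted p from 2.28e-05 to 0.0131 and adjusted p from 0.105 to 0.9999.

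MITF is the transcription factor on which melanocyte survival and pigment gene activity depend (chr6:97807052-98021349, plus strand). Mitf had 28.3, 14.2, 31.0, 27.1 and 30.2 CPM in NPYtet replicates 1 to 5 and 46.6, 9.57, 28.1, 34.3 and 15.8 CPM in WT replicates 1 to 5. Both the highest and the lowest library were WT, and the NPYtet values lay inside the WT range. The means were 26.1 ± 6.88 CPM in NPYtet and 26.9 ± 14.7 CPM in WT (SD, n = 5 each), and the fitted difference was -0.11 in log2 units (SE 0.36, edgeR adjusted p = 0.999). Its sign turned when WT replicate 1 (0.10), WT replicate 4 (0.14) or NPYtet replicate 2 (0.01) was left out. Mitf has several starts that are used in different cell types and share their later exons, and gene counts do not separate them. The window of the most 3′ start in the table (chr6:97991533-97991832, plus strand) held TGACGTCA, the palindromic site of CREB, the factor that melanocortin signals activate, at -153. It was in 1.79% of all windows and is in capitals here because it was in no other lineage gene window:
Mitf: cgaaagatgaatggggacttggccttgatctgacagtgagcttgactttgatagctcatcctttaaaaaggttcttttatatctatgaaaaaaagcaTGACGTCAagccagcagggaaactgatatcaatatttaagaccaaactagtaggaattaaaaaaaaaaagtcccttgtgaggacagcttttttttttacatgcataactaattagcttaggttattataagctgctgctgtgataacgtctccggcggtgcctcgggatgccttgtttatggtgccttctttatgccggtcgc

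SOX10, which switches on Mitf in the neural crest and is also made by Schwann cells, is encoded at chr15:79154908-79165240, minus strand. Sox10 had 8.63, 4.01, 8.53, 5.13 and 5.43 CPM in NPYtet and 7.62, 9.31, 8.96, 4.34 and 6.17 CPM in WT, in replicate order. The ranges nearly coincided, and WT replicate 4, among the highest for pigment genes, was the lowest WT library here. The log2 fold change was -0.32 (SE 0.34, edgeR adjusted p = 0.999). The 14 Schwann cell markers tested had a median of 0.05, with 8 higher and 6 lower, and their summed level was 251 to 478 CPM in NPYtet and 227 to 370 CPM in WT, with Pmp2 at 0. Sox10 RNA in bulk skin therefore cannot be assigned to melanocytes alone, and the Schwann cells' part in its level was not tested.

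PAX3, the third factor, acts with SOX10 on Mitf and is also made by muscle precursors (chr1:78101267-78197134, minus strand). Pax3 had 61, 10, 109, 71 and 0 reads in NPYtet and 130, 11, 64, 116 and 27 reads in WT. That is 1.50, 0.318, 2.51, 1.63 and 0 CPM in NPYtet, where the 0 of replicate 5 allows up to 0.199 CPM (3 reads, counting error only), and 3.36, 0.582, 1.50, 1.92 and 0.801 CPM in WT. The libraries lowest in each genotype, NPYtet replicates 5 and 2 and WT replicates 2 and 5, were all labelled male. They also had the fewest genes with a read (19953, 24803, 21144 and 24710). WT replicate 4, labelled male too, lay above WT replicate 3, labelled female. Pax3 averaged 1.19 ± 1.03 CPM in NPYtet and 1.63 ± 1.10 CPM in WT (log2 fold change -1.32, SE 0.68, edgeR adjusted p = 0.999). Without NPYtet replicate 5 the fold change was -0.80, with no sex term -0.44 and in limma voom -0.14. The 12 muscle markers had a median of -0.27, with 2 higher and 10 lower, and summed to 4622 to 9018 CPM in NPYtet and 3704 to 11699 CPM in WT, whose part in the Pax3 level was not tested.

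KIT is the receptor tyrosine kinase that melanoblasts need to migrate and survive, and mast cells carry it too (chr5:75574916-75656722, plus strand). Kit had 16.2, 10.9, 13.3, 18.2 and 2.32 CPM in NPYtet and 23.4, 4.65, 10.3, 25.9 and 12.7 CPM in WT. WT replicates 1 and 4 were the 2 highest libraries and NPYtet replicate 5 the lowest, with 35 reads, and the rest of the groups overlapped. The means were 12.2 ± 6.19 CPM in NPYtet and 15.4 ± 8.97 CPM in WT (log2 fold change -0.59, SE 0.52, edgeR adjusted p = 0.999). Without NPYtet replicate 5 it was -0.18. The 10 mast cell markers tested had a median of 0.16, with 7 higher and 3 lower, and summed to 164 to 238 CPM in NPYtet and 109 to 201 CPM in WT. Of these markers, the proteases Cma1 and Cpa3 averaged 32.2 and 41.3 CPM in NPYtet and 25.3 and 25.2 CPM in WT. Others went the other way, with fold changes of -0.06 (Ms4a2), -0.19 (Fcer1a) and -0.47 (Mrgprx2) in the fit with no filter. The part of mast cells in the Kit level was not tested.

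KITL, the ligand of KIT, is made by keratinocytes and dermal cells (chr10:100015630-100100416, plus strand). Kitl had 15.3, 23.6, 23.0, 28.1 and 34.0 CPM in NPYtet and 36.1, 15.5, 23.9, 46.3 and 11.6 CPM in WT. NPYtet lay inside the wider WT spread, whose top was again WT replicates 4 and 1. The log2 fold change was -0.10 (SE 0.38, edgeR adjusted p = 0.999), and its sign turned in 6 of 20 alternatives. Among all 16 genes of the KIT pathway list, Kit and Kitl included, 10 were lower and 6 higher with a median of -0.08, and no gene passed an unadjusted p of 0.05 in edgeR. The smallest p among the others belonged to Pik3r1 (0.40, SE 0.36), a subunit of the kinase that KIT recruits, and to the phosphatases Ptpn11 (-0.32, SE 0.29) and Ptpn6 (-0.33, SE 0.32), at an edgeR adjusted p of 0.999 each.

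EDNRB, the endothelin receptor of melanoblasts, is also found on vessel and other skin cells (chr14:103814625-103844402, minus strand). Ednrb had 25.7, 43.1, 21.9, 35.2 and 19.3 CPM in NPYtet and 74.4, 22.0, 35.2, 33.1 and 14.3 CPM in WT. WT replicate 1 alone exceeded every NPYtet library. The log2 fold change was -0.28 (SE 0.38, edgeR adjusted p = 0.999), and 0.12 without WT replicate 1. The 14 endothelial markers had a median of 0.20, with 13 higher and 1 lower, and summed to 411 to 494 CPM in NPYtet and 303 to 548 CPM in WT, and their part in the Ednrb level was not tested.

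EDN3 is the endothelin that binds EDNRB in the melanocyte lineage (chr2:174760619-174784042, plus strand). Edn3 had 1.06, 0.318, 1.31, 1.03 and 0.397 CPM in NPYtet and 1.39, 0.423, 1.60, 0.811 and 0.594 CPM in WT, from 6 to 57 reads in NPYtet and 8 to 68 reads in WT. The same replicate numbers, 2 and 5, were lowest in each genotype, and all 4 of these libraries were labelled male. They were also the libraries with the fewest genes with a read. The log2 fold change was -0.58 (SE 0.40, edgeR adjusted p = 0.999). Of the 11 genes of the endothelin list 8 were lower and 3 higher, with a median of -0.27. Edn2, an endothelin of epidermis and follicle, averaged 1.31 ± 0.993 CPM in NPYtet and 4.58 ± 3.18 CPM in WT (-1.91, SE 0.57, edgeR adjusted p = 0.999). It was the 1 gene of the list under an unadjusted p of 0.05 in edgeR, against 3.59% of all genes. With no filter edgeR called it as lower, like 0.992% of all genes, and DESeq2 and limma voom did not call it. Edn1 had a fold change of -0.76 (SE 0.37), the other receptor Ednra -0.12 (SE 0.37) and the G protein subunit Gnaq 0.33 (SE 0.26), and none of the 3 was called.

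Agouti, the antagonist of MC1R that turns follicles to yellow pigment, lies at chr2:154791402-155051012 on the plus strand and shares 147 exon bases with Raly on the same strand, so that some of its reads are uncertain too. Agouti had 1.13, 2.26, 1.45, 0.801 and 2.78 CPM in NPYtet and 0.723, 4.02, 0.658, 1.39 and 2.70 CPM in WT. The genotypes overlapped over most of their range, and WT replicate 2 was highest. Its genotype difference of 0.30 in log2 units (SE 0.43, edgeR adjusted p = 0.999) was the 1 positive value among the 9 genes tested, and it was -0.17 with no sex term. CORIN, the protease of the dermal papilla that limits agouti, lies at chr5:72300025-72504473 on the minus strand and shares 147 exon bases with Gm20647 on the opposite strand. Corin had 0.320, 0.254, 0.715, 0.435 and 2.58 CPM in NPYtet and 5.86, 0.687, 0.658, 2.09 and 2.05 CPM in WT. NPYtet replicate 5 stood with the 3 high WT libraries, and WT replicates 2 and 3 stood with the other NPYtet libraries.

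Corin averaged 0.861 ± 0.977 CPM in NPYtet and 2.27 ± 2.13 CPM in WT (log2 fold change -1.50, SE 0.75, unadjusted p = 0.0629, edgeR adjusted p = 0.999), the smallest p of the 9 genes. It was -2.68 without NPYtet replicate 5 and -0.31 without WT replicate 1, so that single libraries set its size. The 21 dermal papilla markers, of which Corin is 1, had a median of -0.42, with 15 lower and 6 higher, and summed to 166 to 261 CPM in NPYtet and 199 to 347 CPM in WT. Of the melanocortin list of 20 genes 14 were tested, with 8 lower, 6 higher and a median of -0.05. Of the 14, 1 was lower without overlap, against 0.216% of all genes tested. Pcsk2 was called as lower by DESeq2, as were 0.172% of all genes, and not by edgeR with the filter or limma voom. With no filter edgeR called it too (-2.89, SE 0.63, edgeR adjusted p = 0.000689), as lower like 0.992% of all genes. Mrap and Mc2r, an accessory protein and the corticotropin receptor it serves in fat, had fold changes of 1.16 (SE 0.40) and 1.24 (SE 0.56), at an edgeR adjusted p of 0.999 each. The precursor gene Pomc, at 0.152 CPM in NPYtet and 0.162 CPM in WT, did not pass the filter. Mc5r (0.01), Agrp (-0.45) and Gnas (-0.25) were not called.

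**Figure D2:**
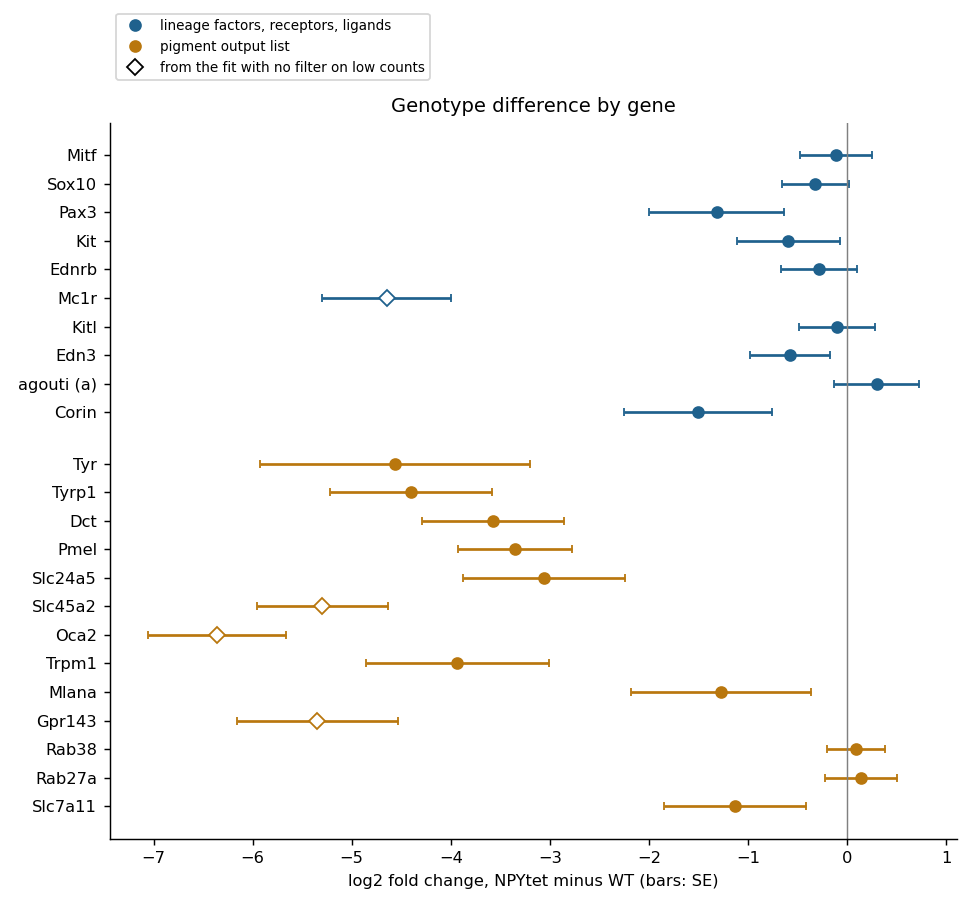
Log2 fold change, NPYtet minus WT, with bars of 1 SE, for the 10 lineage, receptor and ligand genes (blue) and the 13 pigment genes (orange). Open diamonds are genes that the low-count filter left out, from the fit with no filter. Mitf, Sox10, Kitl and Ednrb sit within 0.32 of zero on the negative side, Mc1r lies at -4.65, and Tyr, Tyrp1, Dct and Pmel lie between -4.56 and -3.35.

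Pigment output was set beside these genes, library by library. Of the 13 pigment genes 10 were tested, with 8 lower, 2 higher and a median of -3.20, and 6 reached an unadjusted p of 0.05 as lower, as 2.14% of all genes did. None was called by edgeR with the filter and all libraries, or by limma voom (4 at an unadjusted p of 0.05, with 4.33% of all genes). DESeq2 called 4 as lower (Tyrp1, Pmel, Slc24a5 and Trpm1), as it did 0.172% of all genes. With no filter edgeR called 9 of 13 as lower, as it did 0.992% of all genes. Without WT replicate 3, edgeR called 4 as lower (Tyrp1, Dct, Pmel and Slc45a2), as it did 0.0382% of all genes. WT replicate 3 was the lowest WT library for Tyr, Tyrp1, Dct and Pmel summed (25.7 CPM). No other fit with 1 library left out called a pigment gene. Pmel, which builds the fibrils of the melanosome, averaged 4.14 ± 1.29 CPM in NPYtet and 39.2 ± 30.3 CPM in WT (-3.35, SE 0.57, edgeR adjusted p = 0.306). Tyrp1 had -4.40 (SE 0.82, adjusted p = 0.655), Dct -3.58 (SE 0.71, 0.744), Trpm1 -3.93 (SE 0.92, 0.868) and Tyr -4.56 (SE 1.36, 0.999) in edgeR. Tyrp1, Dct, Pmel and Trpm1 were lower in NPYtet without overlap, as were 0.216% of all genes tested. Rab38 (0.09) and Rab27a (0.14), transport proteins that many cells make, had fold changes near zero. Mlana, a melanosome protein, had 7.33, 1.24, 2.08, 1.12 and 8.73 CPM in NPYtet and 22.8, 2.22, 1.13, 18.5 and 4.33 CPM in WT (-1.27, SE 0.91). Slc7a11, a cystine transporter, had 0.713, 15.7, 0.415, 0.550 and 7.54 CPM in NPYtet and 7.36, 10.05, 0.541, 9.70 and 5.91 CPM in WT (-1.13, SE 0.72). The genotypes overlapped for both, and neither was called by edgeR. Slc45a2, Oca2 and Gpr143, melanosome membrane proteins that the filter left out like Mc1r, had 16, 6 and 4 reads over the NPYtet libraries and 591, 698 and 211 reads over the WT libraries, without overlap in CPM, as 0.284% of the genes left out. For Gpr143, NPYtet replicate 3 and WT replicates 2, 3 and 5 had 3 reads each, and for Oca2, NPYtet replicate 2 had 3 reads and WT replicate 2 had 2, so that for both genes the separation depends on library scaling.

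All 13 pigment genes summed to 65.4 to 86.3 CPM in NPYtet and 96.7 to 460 CPM in WT, with Rab38 and Rab27a in the sum. The summed level of Tyr, Tyrp1, Dct and Pmel alone was 11.7, 6.97, 18.6, 14.7 and 8.27 CPM in NPYtet and 309, 60.0, 25.7, 223 and 36.4 CPM in WT. It varied widely among WT libraries, with replicates 1 and 4 highest and replicate 3 near the highest NPYtet library. Divided by Mitf in the same library, it was 0.413, 0.492, 0.600, 0.545 and 0.274 in NPYtet and 6.63, 6.27, 0.916, 6.49 and 2.30 in WT. No NPYtet library reached a WT library in this ratio, although Mitf itself overlapped between genotypes. With all 13 pigment genes summed, the ratio to Mitf did overlap, at 2.17 to 5.37 in NPYtet and 3.44 to 10.4 in WT. The sum of Tyr, Tyrp1, Dct and Pmel alone was used for the ratios to the other genes. Divided by Sox10 it was 1.35 to 2.88 in NPYtet and 2.87 to 51.4 in WT, touching only at NPYtet replicate 4 and WT replicate 3. Divided by Ednrb it was 0.162 to 0.852 in NPYtet and 0.731 to 6.74 in WT, and divided by Kit it was 0.637 to 3.57 in NPYtet and 2.49 to 13.2 in WT. The Kit ratio of NPYtet replicate 5, the library with 35 Kit reads, made the overlap. Divided by Pax3 it was 7.41 to 21.9 in the 4 NPYtet libraries with a Pax3 read and 17.1 to 116 in WT, and NPYtet replicate 2 made the overlap.

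The ratio of the same 4-gene sum to Mc1r behaved otherwise. It was 238, 54.8, 808, 129 and 125 in NPYtet and 79.7, 51.6, 78.2, 51.2 and 204 in WT. These values overlapped, and in NPYtet each rests on at most 5 Mc1r reads. Over the 10 libraries the centred log2 CPM of Mc1r was compared with the mean centred log2 CPM of Tyr, Tyrp1, Dct and Pmel. The 2 differed by a root mean square of 0.728, a description with no test, since all the values share libraries and depth. How many genes outside these lists came as near is not given here. For the 4 pigment genes singly, each itself a part of that mean, the difference was 0.248 (Tyrp1) to 0.987 (Tyr). Of the other lineage genes Corin came nearest, at 1.24. Kit (1.70), Kitl (1.71), Ednrb (1.71), Mitf (1.76), Edn3 (1.82) and Pax3 (1.87) lay just under the 1.89 of a gene with the same level throughout, and Sox10 (1.94) and agouti (2.23) lay above it.

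**Figure D3:**
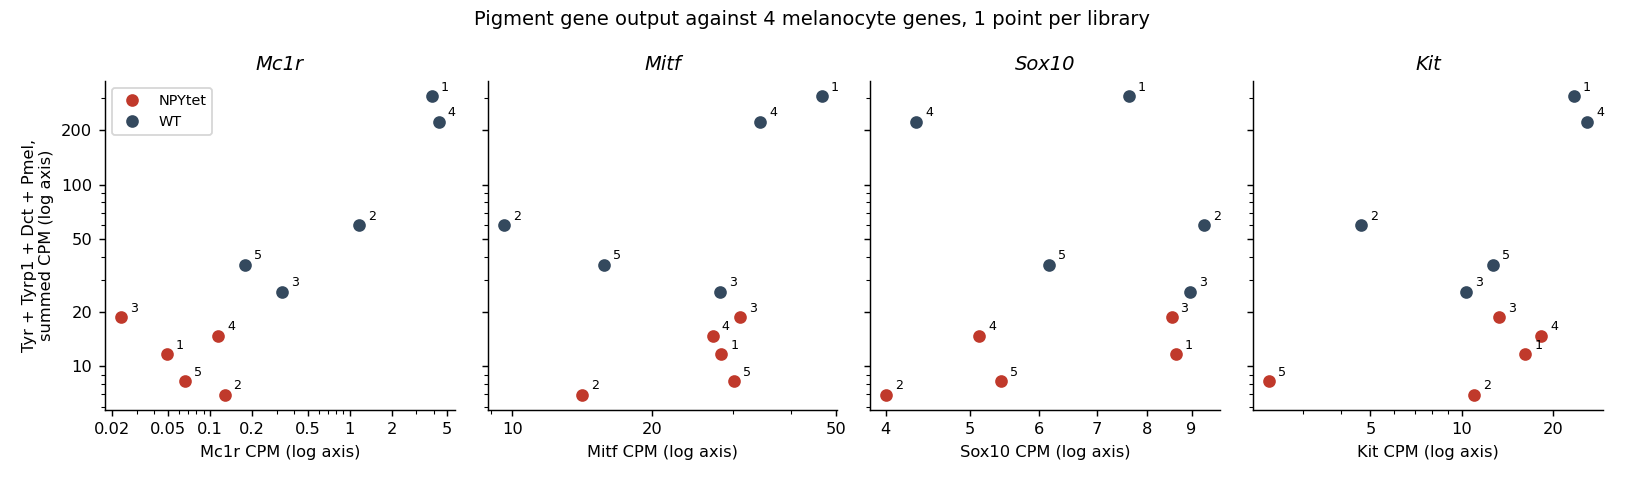
Summed CPM of Tyr, Tyrp1, Dct and Pmel against the CPM of Mc1r, Mitf, Sox10 and Kit, both on log axes. Each point is 1 library (NPYtet red, WT dark blue) with its replicate number. NPYtet replicate 5, with 30.2 CPM of Mitf, had 8.27 CPM of pigment genes, and WT replicate 4, with 34.3 CPM of Mitf, had 223 CPM. Other pairs lay closer: NPYtet replicate 3, with 31.0 CPM of Mitf, had 18.6 CPM. WT replicate 3, with 28.1 CPM of Mitf, had 25.7 CPM. Mc1r separates the genotypes along its axis.

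Genes of the hair shaft and root sheath, which are active while a hair grows, also differed widely between the libraries. Their summed level was 119, 1835, 246, 148 and 17967 CPM in NPYtet and 30613, 32411, 432, 22223 and 10463 CPM in WT. WT replicate 3 was the lowest WT library for these genes and for the 4 pigment genes summed. WT replicate 2 was the highest for hair genes, with 60.0 CPM of the 4 pigment genes against 309 and 223 CPM in WT replicates 1 and 4. In NPYtet, replicates 5 and 2 were highest for hair genes and lowest for the 4 pigment genes (8.27 and 6.97 CPM). All 29 hair genes tested were lower in NPYtet, with a median of -4.08. EdgeR with the filter called none of them, and limma voom none. In edgeR 7 were at an unadjusted p of 0.05, as lower, like 2.14% of all genes. DESeq2 called 6 and edgeR with no filter 28, against 0.194% of all genes in DESeq2 and 1.24% with no filter. Without NPYtet replicate 5, 29 of the 29 reached an unadjusted p of 0.05 in edgeR, against 3.85% of all genes, and none was called. That library had by far the highest hair sum in NPYtet. The other fits with 1 library left out put 6 to 11 of the 29 under that p, and none was called. NPYtet replicate 5, whose hair genes were above those of WT replicates 3 and 5, had 8.27 CPM of the 4 pigment genes. Its Mc1r level was 0.0662 CPM (1 read), and it is the library with 9.26% mitochondrial reads. WT replicate 3, whose hair genes were below those of NPYtet replicates 2 and 5, had 25.7 CPM of pigment genes. Its Mc1r level was 0.329 CPM (14 reads). With a hair score as covariate, the Mc1r fold change was -2.72 in the fit with no filter (edgeR adjusted p = 0.245). In the filtered fit with that covariate, Mitf (0.32), Kitl (0.37), Ednrb (0.24) and Corin (0.09) were positive and uncalled. The hair cycle stage is not in the labels.

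**Figure D4:**
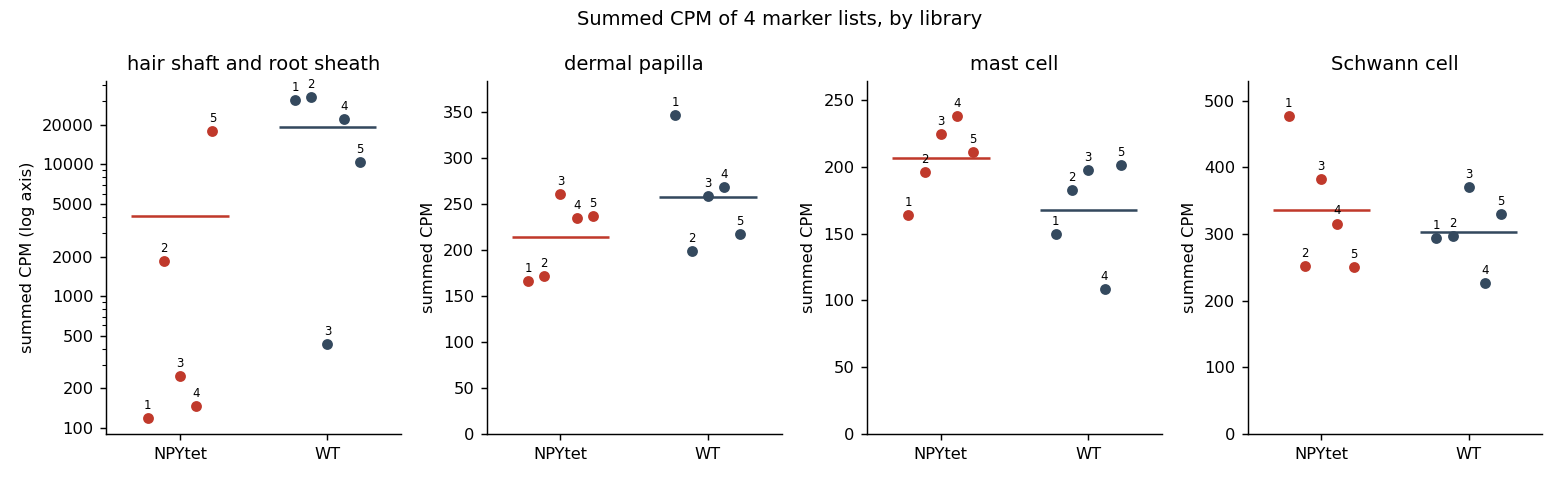
Summed CPM of the hair shaft and root sheath (log axis), dermal papilla, mast cell and Schwann cell marker lists in each library, NPYtet left and WT right, with replicate numbers and group means as lines. Hair genes are at 246 CPM or under in NPYtet replicates 1, 3 and 4, and the other 3 lists overlap between genotypes.

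Other regulators of the lineage were read from a list of 19 genes with Mitf, Sox10 and Pax3 among them, of which 18 were tested, with 11 lower, 7 higher and a median of -0.12. Lef1, a Wnt effector of the hair matrix that also acts on melanocyte genes, had 1.35, 4.23, 2.31, 2.24 and 3.44 CPM in NPYtet and 47.2, 7.98, 3.55, 53.2 and 6.97 CPM in WT. Its groups overlapped only between NPYtet replicate 2 and WT replicate 3 (-3.13, SE 0.73, edgeR adjusted p = 0.833). DESeq2 called Lef1 as lower, as it did 0.172% of all genes. Sox5 (-1.25, SE 0.59) and Tfap2a (-0.52, SE 0.30) were the next by p among genes of this list other than Mitf, Sox10 and Pax3, and neither was called by edgeR. Among 21 genes of melanoblast migration and niche, 12 were higher and 9 lower with a median of 0.02. None was called by edgeR with the filter or by limma voom. In edgeR 3 were at an unadjusted p of 0.05, all as lower, as 2.14% of all genes were. DESeq2 called 1, Adamts20, as lower, as it did 0.172% of all genes. Adamts20, a protease whose loss in mice leaves white belly patches, averaged 0.819 ± 0.163 CPM in NPYtet and 4.59 ± 4.86 CPM in WT (-2.55, SE 0.63, edgeR adjusted p = 0.842), with the highest values in WT replicates 1 and 4 (12.2 and 6.70 CPM). The Wnt ligand Wnt10b (-1.07, SE 0.42) and the cadherin Cdh3 (-0.91, SE 0.36) were at an edgeR adjusted p of 0.999.

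Levels were ordered within each genotype after division by exon length. In NPYtet Ednrb led with 6.81 ± 2.32 CPM per kb, followed by Mitf (4.22 ± 1.11), Kitl (4.20 ± 1.17), Sox10 (2.08 ± 0.691), agouti (1.44 ± 0.699), Kit (1.37 ± 0.694), Edn3 (0.200 ± 0.107), Pax3 (0.193 ± 0.166), Corin (0.159 ± 0.181) and Mc1r (0.0209 ± 0.0121). Steps larger than the SD of both neighbours came after Ednrb, Kitl and Kit. In WT the order in CPM per kb was Ednrb (8.39 ± 5.43), Kitl (4.52 ± 2.44), Mitf (4.34 ± 2.38), Sox10 (2.39 ± 0.674), Kit (1.73 ± 1.01), agouti (1.62 ± 1.23), Mc1r (0.544 ± 0.547), Corin (0.420 ± 0.394), Pax3 (0.264 ± 0.178) and Edn3 (0.234 ± 0.124). No neighbours there differed by more than the larger of their SDs. Mc1r stood last in NPYtet and above Corin, Pax3 and Edn3 in WT.

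By labelled sex, male minus female, 448 of 18060 genes were called in edgeR (2.48%) and none of the 9 tested here, while 3 reached an unadjusted p of 0.05, against 24.6% of all genes. Edn3 averaged 0.509 ± 0.197 CPM in males and 1.28 ± 0.239 CPM in females (n = 5 each), a difference of -1.45 in log2 units (SE 0.41, edgeR adjusted p = 0.0714). Pax3 averaged 0.724 ± 0.732 CPM in males and 2.10 ± 0.820 CPM in females (-2.07, SE 0.68, edgeR adjusted p = 0.101). Agouti averaged 2.63 ± 0.953 CPM in males and 0.953 ± 0.333 CPM in females (1.55, SE 0.43, edgeR adjusted p = 0.0713). With NPYtet replicate 1 left out these fold changes were -1.42, -2.03 and 1.62 (edgeR adjusted p = 0.0966, 0.111 and 0.0790), in the order Edn3, Pax3, agouti. Without WT replicate 2 and NPYtet replicate 5 as well they were -1.32, -1.39 and 1.37, with 949 of 18674 genes called and again none of the 10.

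The genotype difference did not pass the threshold for a difference between the labelled sexes in any gene (0 of 18060 in edgeR, 0%), and 1.63% of genes and none of the 9 reached an unadjusted p of 0.05. Without NPYtet replicate 1 the count was also 0, with 127 genes at that unadjusted p. Corin had a genotype fold change of -2.72 (SE 0.97) in labelled females and -0.24 (SE 0.99) in labelled males. Ednrb had -0.99 (SE 0.50) in labelled females and 0.43 (SE 0.51) in labelled males. These within-sex values rest on 2 or 3 libraries a group. The labelled NPYtet females include replicate 1, whose reads go against its label, so they are not values of females alone.

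For the 3 most variable tested genes, Pax3, Corin and Kit, the genes with the most similar pattern were sought among 15170 by the root mean square difference of centred log2 CPM over the 10 libraries. Closest to Pax3 were Gm9752 (0.401), Clic6 (0.515) and 1700028E10Rik (0.516). Corin was nearest to Matn4 (0.426), Gabrp (0.488) and Rtkn2 (0.510). The nearest to Kit were Ss18l1 (0.278), Zfp92 (0.279) and 4632404H12Rik (0.298). No pigment gene was among these 9.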

How the data were processed

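Poly(A) RNA of whole skin was sequenced as 5 NPYtet and 5 WT libraries, grouped by the labels. The authors deposited 1 file of raw counts per library, by Ensembl gene ID. Tools named for mm10, per the submitters' processing notes, were STAR 2.5.2, Trimmomatic 0.36, FastQC 0.11.8, bcl2fastq and DESeq2 1.30.1. Neither the strand column behind the counts nor the annotation release is given in those sources, so exons shared with genes of the opposite strand are uncertain. Of the gene IDs, 49412 of 49671 matched GENCODE M21. No 2 libraries of a group agreed within sampling noise.

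The tests were run with edgeR 4.0.16 in R 4.3.3: filterByExpr (minimum count 10, minimum total 15), TMM scaling, and the robust quasi-likelihood test on sex label and genotype, Benjamini-Hochberg adjusted over 18060 genes at 0.05. In DESeq2, genes left with no p stayed uncounted. Log2 CPM adds a prior count of 2. An entry of 0 allows up to 3 reads, which like the intervals covers counting error only.

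The genes and lists were chosen with earlier results of these data known. Of 225 list names 1 did not match. Named genes are the 10 genes, the pigment genes, up to 3 genes of smallest genotype p per pathway list with a mean CPM of at least 1, the other ligands and receptors of those systems, and the nearest patterns of the 3 most variable genes. Also named are Pcsk2, as a called gene of its list, and some single markers of the skin and mast cell lists. The hair score is the mean centred log2 CPM of the hair list.

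Alternatives were DESeq2 1.42.0, limma 3.58.1 voom with quality weights, RLE or no scaling, no filter or 1 CPM in 5 libraries, no sex term, a replicate block, the hair score as covariate, and leaving out each library or 3 together. Chosen after seeing the data were the alternatives of the Mc1r fit with no filter, those of the pigment sum, and those of the sex comparisons.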

Additional observations from a re-analysis of the deposited data

Results flagged for a closer look

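Over 22 groups of 5 libraries, a single library stood far from the others in 3 cases, and chance alone marks about 1 group in 20. Mitf in NPYtet replicate 2 was 14.2 CPM, where the nearest NPYtet library had 27.1 CPM. Corin in NPYtet replicate 5 was 2.58 CPM, where the nearest had 0.715 CPM. Corin in WT replicate 1 was 5.86 CPM, where the nearest had 2.09 CPM.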

How the results depend on the processing

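The count of genes called between genotypes was 1 in the fit reported, 35 with DESeq2, 2 with limma voom, 409 with no filter, 0 without WT replicate 2 and NPYtet replicates 1 and 5 together (813 at an unadjusted p of 0.05), and 1 to 8 with single libraries left out (8 without WT replicate 3). Mc1r was called with no filter, and none of the 8 to 10 of these genes tested in each other alternative was called. Log2 fold changes of uncalled genes changed sign under limma voom for Kit (0.17) and Kitl (0.066), with no sex term for agouti (-0.17), and with the hair score for Mitf (0.32), Kitl (0.37), Ednrb (0.24) and Corin (0.094). Leave-one-out ranges were -0.40 to 0.14 for Mitf, -0.29 to 0.23 for Kitl, -0.70 to 0.12 for Ednrb and -2.68 to -0.31 for Corin. The cause of these turns was not tested. Sox10, Pax3 and Edn3 kept a negative sign in all 20 alternatives. In the Mc1r fit with no filter the call was also lost with total counts (-4.74, adjusted p = 0.0831), no sex term (-4.67, 0.0627), the hair score and the 3 libraries left out (-4.57, 0.999). The log2 ratio of the group medians of the 13 pigment genes summed was -0.40, -1.47 to -0.33 with single libraries left out, and -2.36 for the 4 genes Tyr, Tyrp1, Dct and Pmel; it was negative in all 13 alternatives. The replicate block called 1 gene and none of the 9, and turned Mitf (0.11) and Kitl (0.018). Replicate numbers do not pair the libraries: same-numbered ones correlated at -0.256, 0.304, 0.644, 0.0931 and 0.0761, and 1 of 5 correlated best with its own number. Depth limits Mc1r, with 1 to 5 reads in each NPYtet library.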
